A study of Mus musculus with 12 samples.

Results

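Bone marrow cells of Hopx-knockout mice were compared with and without MN1 overexpression, using 6 of the 12 RNA sequencing libraries of a study of Hopx wild-type and Hopx-knockout C57BL/6 mice. The 3 libraries called MN1_KO here (replicates 5, 7 and 8) carry the labels Hopx-knockout and MN1 overexpression and an age of 16 weeks. The 3 libraries called aged_KO (replicates 3, 9 and 10) are Hopx-knockout without MN1, labelled old, with an age of 18 weeks. Both groups share the Hopx knockout and were chosen by these labels alone. Each group came in a separate deposited table, so MN1 status, age and table coincide and cannot be told apart. The labels do not say how MN1 was introduced, which cells were recovered, whether the marrow had been transplanted, the sex, the batch, or whether the 3 libraries of a group came from separate animals; the p-values therefore measure the spread between these libraries, which may be technical.

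MN1 is a coregulator of transcription, and forcing its expression in mouse marrow progenitors is an established model of acute myeloid leukaemia. It acts in progenitors that already express the homeobox genes Hoxa9 and Meis1, which are normally active in stem cells and early progenitors and are switched off as myeloid cells mature. Hopx, which is expressed in haematopoietic stem cells, codes for an atypical homeodomain protein without DNA-binding activity.

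Library totals ran from 16544407 to 28409046 expected counts (RSEM estimates of reads per gene). The log2 expression of pairs of libraries correlated at 0.984 to 0.989 within aged_KO, at 0.916 to 0.976 within MN1_KO and at 0.834 to 0.899 between the groups. The 10 most abundant genes took 12.4 to 14.5% of the counts in aged_KO and 4.9, 8.29 and 12% in MN1_KO replicates 5, 7 and 8. All 6 libraries held marrow transcripts such as the granule gene Ltf and the granulocyte progenitor gene Mpo, whereas the B cell gene Ms4a1 was at 0.623 to 3.99 CPM. Values below are CPM, read counts relative to the library total after TMM scaling of these 6 libraries. Wild-type values, and all CPM given with the test of differing effects, come from TMM scaling of all 12 libraries together. Log2 fold changes are MN1_KO against aged_KO with their standard error (SE, n = 3 and 3).

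Hopx, the deleted gene (chromosome 5, 77086986 to 77115123, minus strand, GRCm38.p6), was at 0, 0 and 0.141 CPM in aged_KO replicates 3, 9 and 10. It was at 2.75, 3.03 and 2.86 CPM in MN1_KO replicates 5, 7 and 8. Hopx counts summed to 2 over aged_KO and to 225 over MN1_KO, a ratio of 78.9 after scaling (exact 95% interval 21.6 to 655, counting error only; edgeR adjusted p = 0.00321). The antisense gene Hopxos overlaps Hopx, and the sources used here do not state whether counting used strand. Hopx reads were thus present in every library labelled Hopx-knockout with MN1, at a level well below the 11.8 to 35.1 CPM of the 6 wild-type libraries of the series.

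Mn1 (chromosome 5, 111417300 to 111457030) was at 0.179, 0.0831 and 0.212 CPM in aged_KO replicates 3, 9 and 10. In MN1_KO replicates 5, 7 and 8 it stood at 37.2, 40 and 21.8 CPM. The log2 fold change was 7.75 ± 0.44 (edgeR adjusted p = 0.00034), and all 3 MN1_KO libraries carried the transcript. MN1_KO replicate 8 was the lowest of the 3.

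Sex-linked transcripts differed between the groups and within MN1_KO. The summed level of Ddx3y, Kdm5d, Uty and Eif2s3y on the Y chromosome was 0.0598, 0 and 0.0707 CPM in aged_KO and 11.1, 18.7 and 7.91 CPM in MN1_KO. Xist, the transcript of the inactive X chromosome, was at 896, 514 and 608 CPM in aged_KO and at 3885, 3385 and 575 CPM in MN1_KO replicates 5, 7 and 8. Each MN1_KO library thus held both Y-linked and Xist transcripts, whereas the aged_KO libraries held Xist with 2 Y-linked counts in all. Xist did not pass the test (edgeR adjusted p = 0.0553), but it passed without MN1_KO replicate 8, with DESeq2 and with no filter on low counts. The part of sex or of cells from more than 1 animal in the differences below was not tested.

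**Figure D1:**
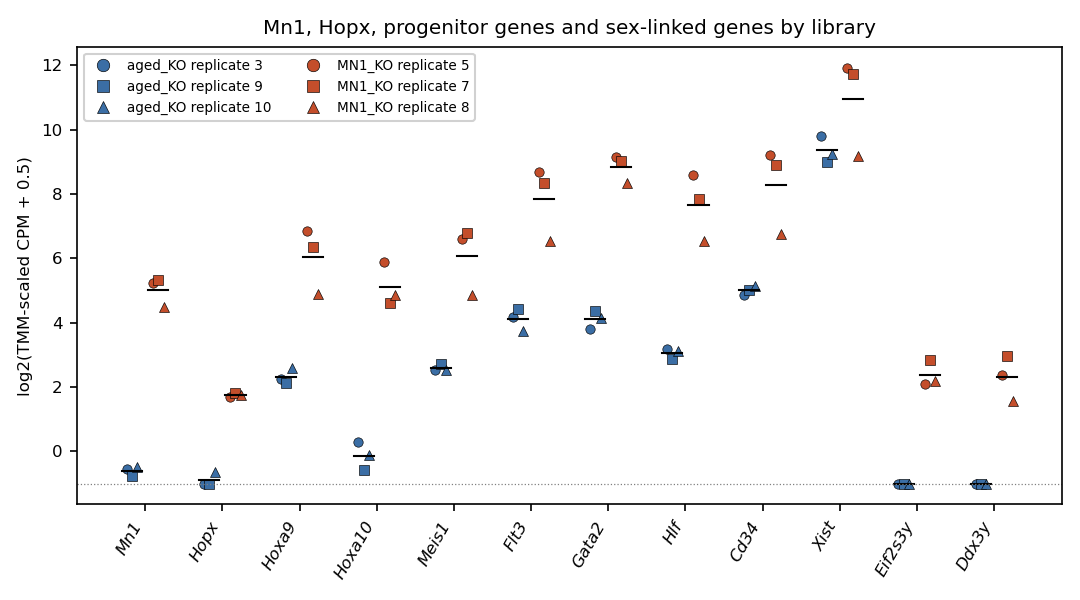
Levels of 12 genes in each of the 6 libraries, on the log2 scale of CPM plus 0.5; blue marks aged_KO, red marks MN1_KO, the shape marks the replicate, black bars are group means and the dotted line is 0 CPM. Mn1, Hopx, Hoxa9, Hoxa10 and Meis1 lie higher in all 3 MN1_KO libraries, and for Xist MN1_KO replicate 8 lies among the aged_KO libraries.

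Of 13126 genes tested with edgeR, 4254 changed (32.4%): 2477 rose in MN1_KO (18.9% of genes tested) and 1777 fell (13.5%). The changes of at least 4-fold were mostly rises, with 1030 genes up and 416 down. At 32-fold or more, 228 rose and 40 fell. The values of the groups did not overlap for 6638 genes (50.6%), and for 33 of the changed genes they did. The median log2 fold change over all genes tested was 0.055. Because the samples are bulk marrow, fewer cells of a type and less RNA per cell cannot be told apart. The number of changed genes was 7739 without MN1_KO replicate 8, 3144 and 2505 without MN1_KO replicates 5 and 7, and 2022, 1782 and 2591 without aged_KO replicates 3, 9 and 10. The other settings, in which no library was left out, gave 3875 to 5359. Counts for gene lists below are of the members that passed the filter on low counts, and that number changed with the setting. A member silent in one group passes the filter only through the other, so these counts describe the tested members and not whole lists.

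**Figure D2:**
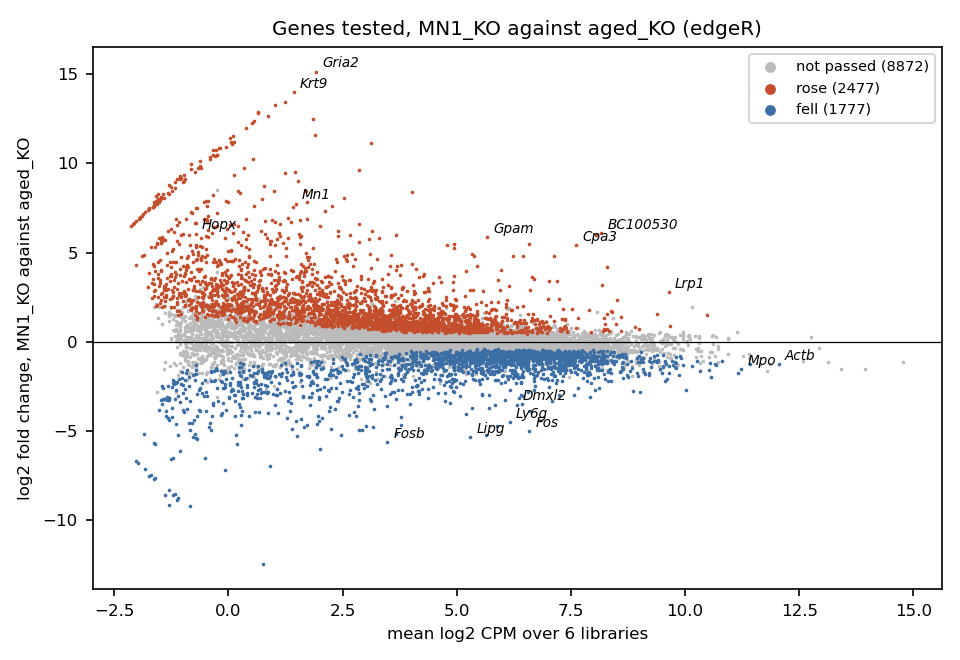
Log2 fold change of every gene tested (vertical) against its mean log2 CPM over the 6 libraries (horizontal); red rose, blue fell, grey did not pass. The straight line of red points at upper left is genes with no count in aged_KO, whose fitted fold change depends on a prior count and is not a measured ratio.

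**Figure D3:**
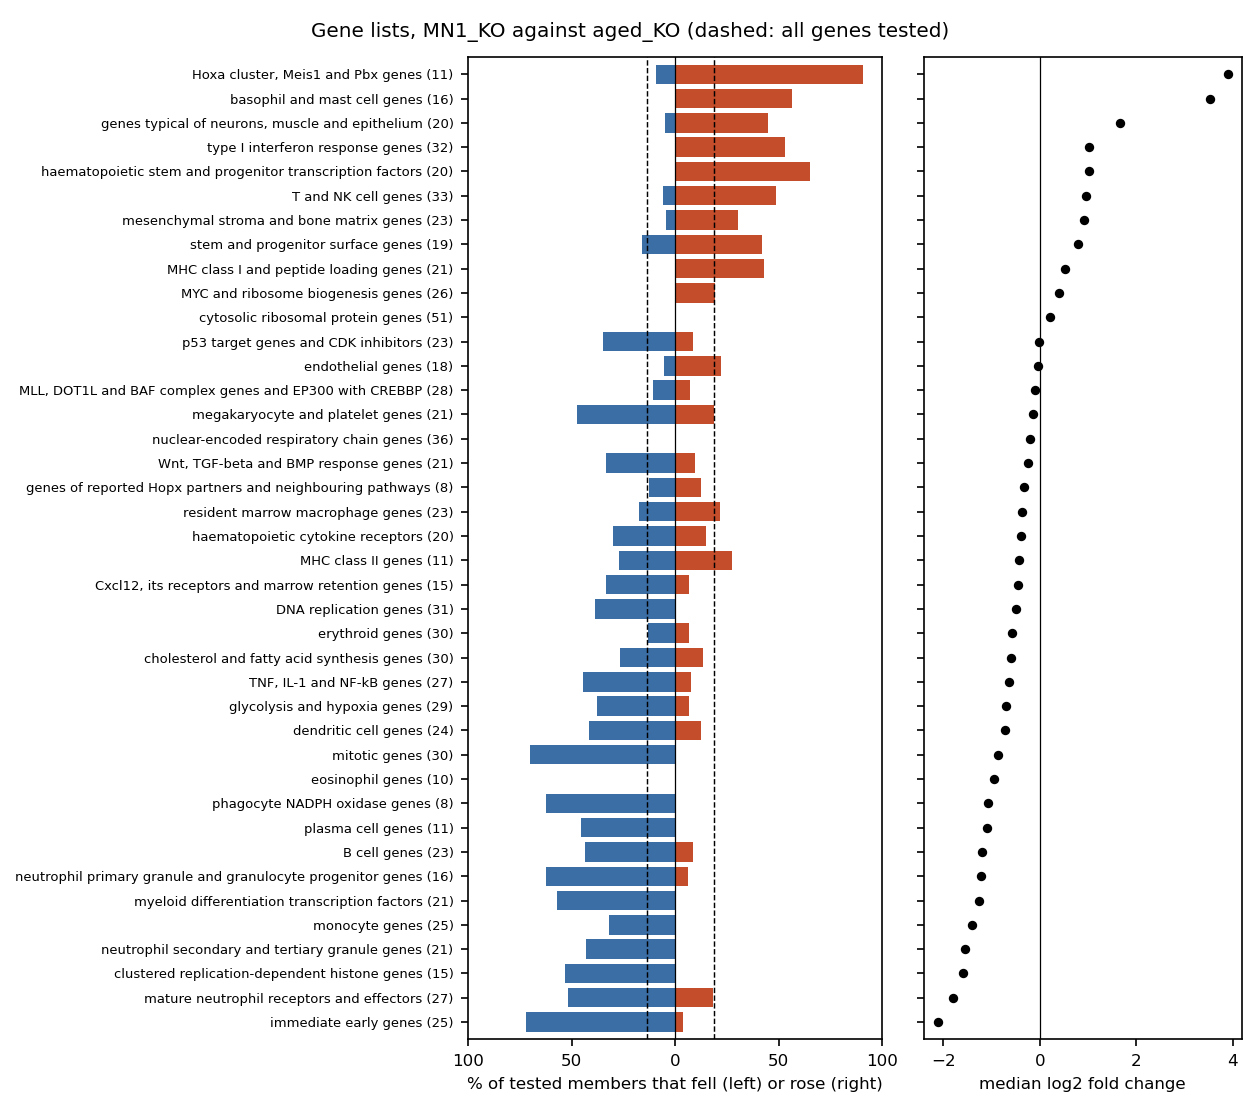
For each gene list with at least 8 members tested (number in brackets), bars give the percentage of those members that fell (blue, left) or rose (red, right) and dots the median log2 fold change. Dashed lines are the 13.5% and 18.9% of all genes tested. Only members that passed the filter on low counts are included. Hoxa genes and basophil and mast cell genes stand highest and immediate early genes lowest.

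The Hoxa cluster rose. Of 14 genes of the Hoxa cluster, Meis1 and the Pbx cofactors, 11 could be tested, of which 10 rose and 1 fell, with a median log2 fold change of 3.89 against 0.055 over all genes. Hoxa9 (chromosome 6, 52223097 to 52227370, minus strand), a homeobox gene of stem cells and progenitors, was at 4.24, 3.86 and 5.52 CPM in aged_KO and at 115, 81 and 29.1 CPM in MN1_KO, a log2 fold change of 4.05 ± 0.51 (edgeR adjusted p = 0.00272). Its neighbour Hoxa10 went from 0.717, 0.166 and 0.424 CPM to 59.2, 24 and 28.4 CPM (6.47 ± 0.60). Meis1 (chromosome 11, 18880428 to 19019651, minus strand), the DNA-binding cofactor of Hoxa9, rose from 5.26, 6.07 and 5.3 CPM to 96.3, 111 and 28.6 CPM (3.82 ± 0.50, edgeR adjusted p = 0.00305). MN1_KO replicate 8 had the lowest Hoxa9 and Meis1 of its group and stood above every aged_KO library.

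Hoxa11 had no count in aged_KO and 771 in MN1_KO, at least 180-fold higher, taking 3 counts over the group as the floor. Pbx3, a Hox cofactor, rose by 1.10 on the log2 scale. The number of risers on this list was 7 without aged_KO replicate 3 or replicate 9 and 8 to 11 without any one other library.

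Transcription factors of stem cells and progenitors rose as a group: 13 of 20 rose and none fell, with a median of 1.01. Gata2 (chromosome 6, 88193891 to 88207032, plus strand), a zinc-finger factor of stem cells and mast cells, was at 13.6, 20.1 and 17.3 CPM in aged_KO and at 566, 521 and 322 CPM in MN1_KO (4.79 ± 0.31, edgeR adjusted p = 0.000562). Hlf, a leucine-zipper factor marking stem cells, rose from 8.66, 6.9 and 8.13 CPM to 388, 231 and 92.5 CPM (4.91 ± 0.54). Hmga2, an architectural chromatin protein of fetal progenitors, rose from 0.418, 0.249 and 0.141 CPM to 53.7, 29.1 and 10.5 CPM (6.81 ± 0.76). Gata2 was the most even of the 3, and Hlf and Hmga2 were lowest in MN1_KO replicate 8.

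The 13 also held Mecom (4.95), Meis2 (9.52), Myb (2.35), Sox4 (2.85) and Mycn (2.91), given as log2 fold changes, whereas Runx1 at 0.60 and Fli1 at -0.40 did not pass. The count of risers was 6 without aged_KO replicate 3 or 9, 7 without aged_KO replicate 10 and 10 to 15 without a MN1_KO library. Of 19 surface genes of stem cells and progenitors, 8 rose and 3 fell (median 0.80). Flt3, the receptor for FLT3 ligand, rose from 17.6, 20.9 and 12.9 CPM to 411, 326 and 92.7 CPM (4.01 ± 0.56, edgeR adjusted p = 0.00346). Cd34 rose from 28.6, 31.9 and 34.7 CPM to 589, 480 and 108 CPM (3.63 ± 0.59), and Adgrg1, an adhesion receptor, from 45.5, 47.1 and 47.8 CPM to 728, 511 and 269 CPM (3.43 ± 0.37). Kit, the stem cell factor receptor, rose by 2.40. These surface counts were 5 risers without aged_KO replicate 3 and 10 without MN1_KO replicate 8.

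Of 20 haematopoietic cytokine receptors, 3 rose and 6 fell (median -0.38). The receptor subunit gene Il4ra fell from 298, 317 and 305 CPM to 61.1, 88 and 151 CPM (-1.61 ± 0.33), and Lifr fell by 2.38. Il1rl1, the interleukin-33 receptor found on mast cells, rose from 14.2, 19.7 and 10.3 CPM to 111, 68.4 and 46.4 CPM (2.35 ± 0.38, edgeR adjusted p = 0.00515). Il6ra fell from 152, 181 and 112 CPM to 24.3, 28.6 and 64.5 CPM, but without aged_KO replicate 9 its adjusted p was 0.0535. Without aged_KO replicate 3, 9 or 10 the fallers numbered 3, 2 and 4, without MN1_KO replicate 7 they numbered 3, and without MN1_KO replicate 8 they numbered 11.

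Basophil and mast cell genes were split between large rises and no call. Of 16 tested, 9 rose and none fell, with a median of 3.53 (3.28 with genes at 0 in aged_KO set at their bound). Cpa3, mast cell carboxypeptidase A, was at 22.2, 54.7 and 33.2 CPM in aged_KO and at 2725, 1604 and 318 CPM in MN1_KO (5.4 ± 0.84, edgeR adjusted p = 0.00449). Cma1, the mast cell chymase, went from 4 counts in aged_KO to 1172 in MN1_KO, or from 0, 0.125 and 0.0707 CPM to 11.9, 21 and 12.8 CPM (7.62 ± 0.60). Ms4a2, the beta chain of the high-affinity IgE receptor, rose by 4.81, and Gzmb, a cytotoxic protease, by 3.27. The other 7 members did not pass. They were Fcer1a, the alpha chain of the same receptor, at -0.67, Hdc at -0.47, Mcpt8 at 0.84, Prss34 at -1.24, Cd200r3 at -0.13, Il4 at 0.42 and Il6 at 1.94 on the log2 scale. Leaving out single libraries left 8 to 10 risers.

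The genes with the largest rises included several typical of neurons, epithelium and germ cells. Gria2 (chromosome 3, 80681450 to 80804227, minus strand), a subunit of the AMPA glutamate receptor, had no count in the aged_KO libraries and stood at 252, 313 and 50.4 CPM in MN1_KO, at least 3860-fold higher. Krt9, a keratin of thick skin, was at 54.9, 58.4 and 165 CPM against 0 in aged_KO, at least 1630-fold higher. Cdh3, placental cadherin, was at 43.4, 62.3 and 83.1 CPM against 0, at least 1120-fold higher. These 3 genes did not rank the MN1_KO libraries alike: replicate 8 was lowest for Gria2 and highest for Krt9 and Cdh3.

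Ddx4 (chromosome 13, 112598333 to 112652633, minus strand), an RNA helicase of germ cells, went from 0.478, 0.166 and 0.0707 CPM to 233, 225 and 123 CPM (9.64 ± 0.55, edgeR adjusted p = 0.00034). Dazl (chromosome 17, 50279393 to 50293620, minus strand), a germ cell RNA-binding protein, was at 59.9, 93.5 and 17.8 CPM against 0, at least 1060-fold higher. Germ cell genes did not move together: Sycp2, of the meiotic chromosome axis, fell by 2.21, and Piwil2, of the piRNA pathway, fell by 1.58 on the log2 scale (both looked up after their values were seen). Ramp3, a receptor-modifying membrane protein, rose from 0.239, 0.125 and 0.0707 CPM to 255, 304 and 490 CPM (11.17 ± 0.49). Zfp503, a zinc-finger gene of the developing brain, rose from 0.896, 1.16 and 0.637 CPM to 417, 383 and 133 CPM (8.39 ± 0.59).

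Esyt3, a membrane-contact protein, held 1 count in aged_KO and 10296 in MN1_KO, a ratio of 7220 (95% interval 1300 to 285000, counting error only). Sfrp2, a secreted Wnt antagonist, held 2 and 9862 counts, a ratio of 3460 (957 to 28600, again for counting error only). Of a list of 44 genes typical of neurons, muscle and epithelium, 20 passed the filter on low counts, and of these 9 rose and 1 fell. With no filter 33 were tested, of which 9 rose and none fell. Dsp, a desmosome plaque protein, rose from 4.9, 3.62 and 6.86 CPM to 328, 298 and 64.2 CPM (5.50 ± 0.68), while 10 tested members, among them Syn1 and Ncam1, did not pass.

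Stefin A genes were among those that gained the most CPM, a scale not corrected for gene length. Stefins are cysteine protease inhibitors found in neutrophils, and their genes lie together on chromosome 16. BC100530 was at 27.4, 39.3 and 59.1 CPM in aged_KO and at 692, 2155 and 5633 CPM in MN1_KO (6.07 ± 0.85, edgeR adjusted p = 0.00351). Stfa1 (chromosome 16, 36277148 to 36285371, plus strand) went from 24.4, 45.7 and 53.7 CPM to 631, 1710 and 5468 CPM (5.98 ± 0.89). Stfa2 went from 22.3, 32.7 and 45.4 CPM to 186, 592 and 1985 CPM. In each of the 3, MN1_KO replicate 8 was highest and replicate 5 lowest. These genes are near-identical copies, so how the reads were shared among them is uncertain. Stfa2l1 rose by 3.17, but its adjusted p was 0.0819, 0.0721 and 0.0797 without aged_KO replicate 3, 9 or 10.

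Lrp1 (chromosome 10, 127538157 to 127621148, minus strand), an endocytic receptor, was at 360, 341 and 239 CPM in aged_KO and at 1689, 1649 and 3124 CPM in MN1_KO (2.78 ± 0.35, edgeR adjusted p = 0.00268). H2afz, a histone variant, rose by 1.49, with an adjusted p of 0.124, 0.127 and 0.0868 without aged_KO replicate 3, 9 or 10.

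**Figure D4:**
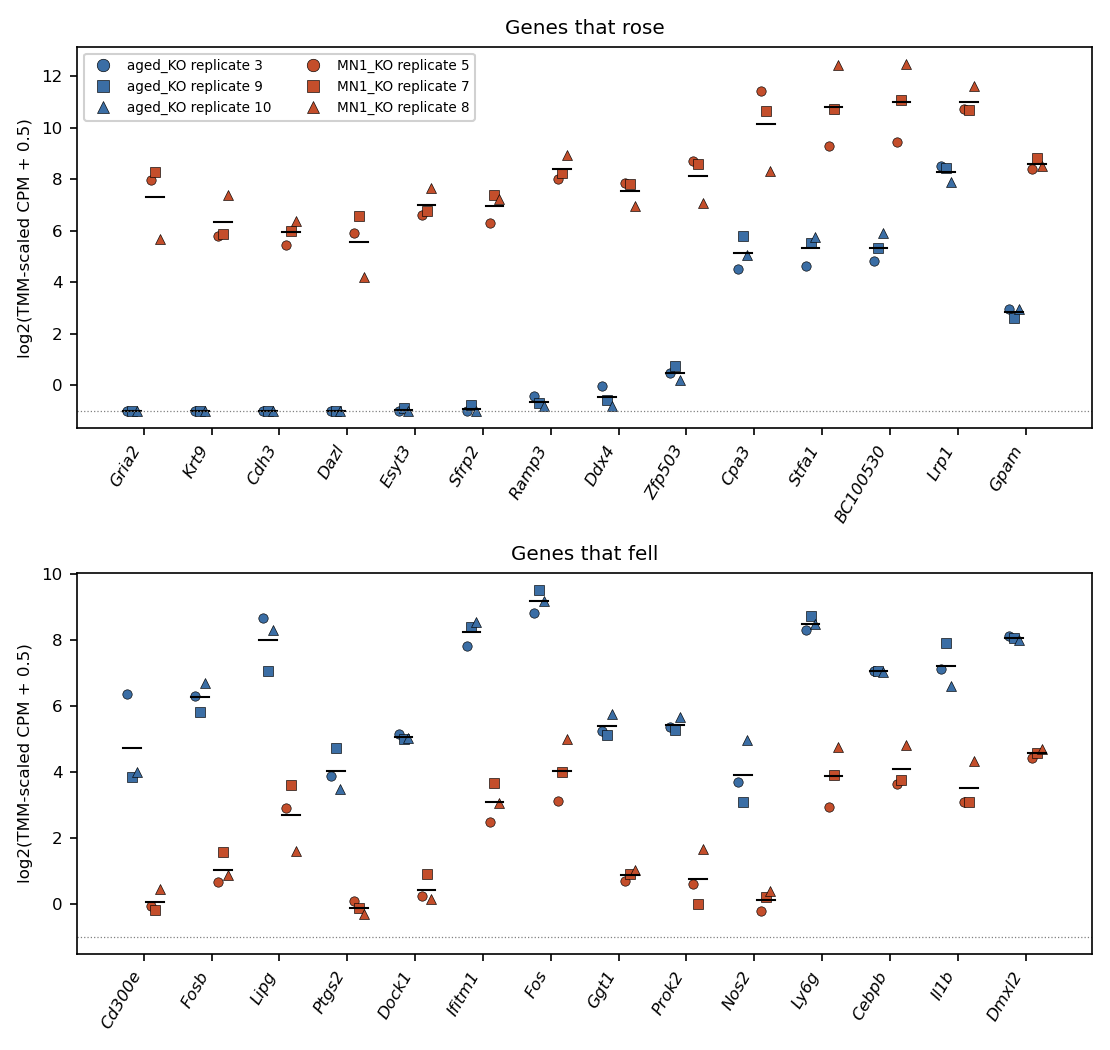
Levels in each library of 14 genes that rose (upper panel) and 14 that fell (lower panel), on the log2 scale of CPM plus 0.5; colours, shapes and bars mark group, replicate and group mean, and the dotted line is 0 CPM. MN1_KO replicate 8 lies lowest of its group for Gria2, Zfp503 and Cpa3 and highest for Krt9, Stfa1 and BC100530.

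Immediate early genes fell. These are switched on within minutes of a stimulus and include the AP-1 transcription factors Fos and Jun. Of 25 tested, 18 fell and 1 rose, with a median log2 fold change of -2.11. Fos (chromosome 12, 85473890 to 85477274, plus strand) was at 455, 734 and 590 CPM in aged_KO and at 8.19, 15.5 and 31.3 CPM in MN1_KO (-5.02 ± 0.54, edgeR adjusted p = 0.00175). Fosb went from 79.2, 55.5 and 104 CPM to 1.07, 2.45 and 1.33 CPM (-5.63 ± 0.41). Junb went from 511, 633 and 503 CPM to 46, 77.8 and 82.1 CPM (-3 ± 0.28), and Jun from 320, 476 and 542 CPM to 30.9, 71.7 and 62.3 CPM (-3.02 ± 0.37). The groups did not overlap for any of these 4 genes, as for 50.6% of all genes tested. Fos and Fosb had been picked by a rule that required it.

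The promoters of those 4 genes are shown because they fell together. Each is the 250 bases before a RefSeq start in GRCm38.p6, 5′ to 3′ in the direction of the gene. The Fosb window lies partly inside the RefSeq span of the gene, which runs to position 19310118. Capitals mark TGACG, the core of the cyclic AMP response element, on either strand.
Fos (chr12:85473640-85473889, plus strand): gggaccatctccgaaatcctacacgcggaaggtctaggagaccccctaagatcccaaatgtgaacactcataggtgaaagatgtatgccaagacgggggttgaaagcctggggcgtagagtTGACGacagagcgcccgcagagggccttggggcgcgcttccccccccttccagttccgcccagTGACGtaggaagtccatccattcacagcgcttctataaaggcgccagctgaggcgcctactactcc
Fosb (chr7:19310046-19310295, minus strand): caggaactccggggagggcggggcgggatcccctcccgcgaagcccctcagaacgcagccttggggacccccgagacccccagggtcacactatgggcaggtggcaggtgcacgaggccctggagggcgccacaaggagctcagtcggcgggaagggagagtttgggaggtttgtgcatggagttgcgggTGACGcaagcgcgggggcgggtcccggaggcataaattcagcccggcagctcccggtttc
Junb (chr8:84978749-84978998, minus strand): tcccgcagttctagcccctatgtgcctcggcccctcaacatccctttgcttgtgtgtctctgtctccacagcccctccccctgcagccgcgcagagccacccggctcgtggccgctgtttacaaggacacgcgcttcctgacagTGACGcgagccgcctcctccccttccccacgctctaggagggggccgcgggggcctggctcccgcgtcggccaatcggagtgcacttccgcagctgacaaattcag
Jun (chr4:95052223-95052472, minus strand): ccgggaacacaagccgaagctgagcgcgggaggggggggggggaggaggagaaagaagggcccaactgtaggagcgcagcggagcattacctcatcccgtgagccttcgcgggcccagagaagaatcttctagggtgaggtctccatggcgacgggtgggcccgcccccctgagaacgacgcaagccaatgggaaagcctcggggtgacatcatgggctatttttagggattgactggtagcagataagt
The Fos window held 2 matches, the Fosb and Junb windows 1 each, and the Jun window none. Of the 18 genes that fell, 15 had a window in the RefSeq table, of which 9 held TGACG (60%) and 2 the full element TGACGTCA (13.3%). Of the 5 windows of immediate early genes that did not pass, 3 also held TGACG (60%), the same share as among the fallers, and none the full element. The core, which is contained in the full element, occurred in 17.8% of all 32851 windows and in 27.1% of the 10037 windows of genes tested, and the full element in 1.55 and 2.74%. A match describes these letters and is not evidence of a factor bound there.

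The other AP-1 and early genes that fell included Atf3 (-3.32), Dusp1 (-3.92), Ier5 (-3.03) and Klf2 (-3), whereas Nr4a2 at 0.71 and Egr2 at 0.37 did not pass. Myc was the riser, going from 63.1, 52.8 and 85.7 CPM to 180, 182 and 96.1 CPM (1.18 ± 0.30), and it did not pass without aged_KO replicate 3 or 9 or MN1_KO replicate 5 or 7 (edgeR adjusted p = 0.0823, 0.1, 0.0522 and 0.0718). The fallers numbered 11 without aged_KO replicate 9 or 10 and 14 to 19 without one of the other libraries.

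More cytokine and NF-kB response genes fell than rose: 12 of 27 fell and 2 rose (median -0.64). The risers were Il1a, interleukin-1 alpha, at 3.64 and Icam1 at 0.86 on the log2 scale. Nfkbiz, an inducible regulator of NF-kB, went from 218, 300 and 370 CPM to 21.6, 30 and 25.4 CPM (-3.53 ± 0.26, edgeR adjusted p = 0.000742). Ptgs2, the inducible cyclooxygenase, went from 14.2, 26.2 and 10.7 CPM to 0.55, 0.415 and 0.299 CPM (-5.30 ± 0.47), and Ccl3 fell by 2.91. The core factors Rela (-0.05), Relb (-0.10) and Nfkb1 (-0.44) did not pass. Nos2, the inducible nitric oxide synthase, went from 12.4, 8.1 and 30.8 CPM to 0.356, 0.665 and 0.812 CPM (-4.81 ± 0.62). Leaving out single libraries left 10 to 15 fallers.

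Genes of neutrophil maturation were lower. Of 27 genes of mature neutrophils, 14 fell and 5 rose (median -1.80), and all 5 risers were stefins: Stfa1, Stfa2, Stfa2l1, Stfa3 and BC100530. Ly6g, the surface antigen of mature neutrophils, was at 315, 424 and 358 CPM in aged_KO and at 7.22, 14.5 and 26.5 CPM in MN1_KO (-4.51 ± 0.49, edgeR adjusted p = 0.00175). Il1b, interleukin-1 beta, went from 140, 239 and 96.7 CPM to 7.99, 7.93 and 19.9 CPM (-3.73 ± 0.51), and the lectin receptor gene Clec4e fell by 1.93. The abundant neutrophil genes S100a8 at -1.51 and S100a9 at -1.14 did not pass. The fallers numbered 8 without aged_KO replicate 3 or 9 or MN1_KO replicate 7, and 22 without MN1_KO replicate 8.

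Of 21 secondary and tertiary granule genes, 9 fell and none rose (median -1.56). Mmp25, a membrane metalloproteinase, went from 330, 367 and 285 CPM to 29, 64.9 and 75.7 CPM (-2.53 ± 0.36), and Ifitm6 fell by 2.82. The summed level of this list was 87100, 102000 and 93700 CPM in aged_KO and 14300, 39100 and 67000 CPM in MN1_KO replicates 5, 7 and 8. The list's fallers numbered 15 with DESeq2, 20 of 21 without MN1_KO replicate 8, and 4, 3 and 4 without aged_KO replicate 3, aged_KO replicate 9 or MN1_KO replicate 7. Of 16 primary granule and granulocyte progenitor genes, 10 fell and 1 rose (median -1.21). Fcnb, ficolin B, went from 439, 428 and 556 CPM to 15.8, 58.4 and 65.1 CPM (-3.35 ± 0.52), and Elane, neutrophil elastase, fell by 1.78. Rab44, a granule GTPase, was the riser, going from 436, 320 and 449 CPM to 1272, 1419 and 796 CPM (1.53 ± 0.28). These counts were 4 to 7 without any one of the libraries other than MN1_KO replicate 8, and 12 without that one.

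Among the genes losing the most CPM were Mpo, myeloperoxidase, and Actb, beta-actin. Mpo went from 4083, 2875 and 5894 CPM to 1898, 1091 and 1368 CPM (-1.56 ± 0.36, edgeR adjusted p = 0.0172). It did not pass without aged_KO replicate 3, aged_KO replicate 10 or MN1_KO replicate 7 (edgeR adjusted p = 0.0508, 0.0523 and 0.0767). Actb went from 6754, 6910 and 6691 CPM to 1624, 2538 and 4428 CPM (-1.25 ± 0.40, edgeR adjusted p = 0.0481), and did not pass under 6 of the alternatives, with adjusted p up to 0.163.

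Of 8 genes of the phagocyte NADPH oxidase, 5 fell (median -1.07), with Ncf1 going from 1757, 2017 and 1872 CPM to 261, 524 and 747 CPM (-1.88 ± 0.38). Without aged_KO replicates 3 or 9 or MN1_KO replicate 7, 1 fell. Without aged_KO replicate 10 it was 2, without MN1_KO replicate 5 it was 3, and without MN1_KO replicate 8 all 8 fell. Of 21 myeloid differentiation factors, 12 fell and none rose (median -1.27). The fallers numbered 6 and 7 without aged_KO replicates 9 and 10. Cebpb, a factor of emergency granulopoiesis and macrophages, went from 135, 134 and 131 CPM to 12, 13 and 27.8 CPM (-2.92 ± 0.34, edgeR adjusted p = 0.00225). Cebpa did not pass (-0.19, edgeR adjusted p = 0.746), with 77.9, 72.5 and 84 CPM against 117, 53.8 and 34.7 CPM, nor did Cebpe (-0.88, edgeR adjusted p = 0.119). Spi1, encoding PU.1, went from 443, 449 and 437 CPM to 107, 147 and 298 CPM (-1.27 ± 0.37, edgeR adjusted p = 0.0358), and did not pass without any one library other than MN1_KO replicate 8, with adjusted p of 0.0577 to 0.117.

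Monocyte, macrophage and dendritic cell genes were split. Of 25 monocyte genes, 8 fell and none rose (median -1.40), among them Vcan, which went from 221, 199 and 143 CPM to 32.1, 18.6 and 61.5 CPM (-2.33 ± 0.43). The monocyte fallers numbered 16 with DESeq2, 13 with limma-trend, 20 without MN1_KO replicate 8, 3 without aged_KO replicate 3 or 9, 5 without aged_KO replicate 10 and 4 without MN1_KO replicate 7. Of 23 resident macrophage genes, 5 rose (21.7%) and 4 fell (17.4%), near the 18.9% and 13.5% of all genes tested (median -0.36). Slc40a1, the iron exporter ferroportin, went from 233, 281 and 236 CPM to 26.5, 39.3 and 41.4 CPM (-2.81 ± 0.23, edgeR adjusted p = 0.000752). Mrc1, the mannose receptor, ran the other way, from 9.02, 9.31 and 5.94 CPM to 54.3, 22 and 28.1 CPM (2.10 ± 0.38). Without any one aged_KO library 2 macrophage genes rose, and without MN1_KO replicate 8, 10 fell, against 8 with DESeq2. Of 24 dendritic cell genes, 10 fell and 3 rose, Flt3 among the risers, and 6 fell without aged_KO replicate 9 or MN1_KO replicate 7. Siglech, of plasmacytoid dendritic cells, went from 17.5, 25.3 and 7.14 CPM to 0.809, 0.457 and 0.684 CPM (-4.66 ± 0.54). Plasmacytoid genes did not move together. The other risers, Ccr9 at 3.08 and Bst2 at 1.29 on the log2 scale, are also of these cells, and Tcf4 (0.68) and Irf8 (-0.47) did not pass. Cd209a kept 1 count in MN1_KO against 105 in aged_KO, a ratio of 150 (exact 95% interval 26.3 to 5970, for counting error only and not the spread between libraries).

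Among lymphoid lists, more B cell genes fell than rose and more T cell genes rose than fell. Of 23 B cell genes, 10 fell and 2 rose (median -1.20). The risers were Rag2, a recombinase subunit, which went from 0.299, 0.0416 and 0 CPM to 21.5, 16.8 and 2.95 CPM (6.89 ± 1.09, edgeR adjusted p = 0.00493), and the factor Ebf1 at 2.67. With all 12 libraries in the fit 5 B cell genes fell, none fell without aged_KO replicate 9, and 3 or 4 did without aged_KO replicates 3 or 10 or MN1_KO replicates 5 or 7. Of 11 plasma cell genes, 5 fell, with Irf4 at -1.71 ± 0.30, and 3 and 10 fell without aged_KO replicate 10 and MN1_KO replicate 8, and 9 with DESeq2. Of 33 T and NK cell genes, 16 rose and 2 fell (median 0.95). The fallers were Klra8 at -4.43 and Nkg7 at -1.2 on the log2 scale. The NK receptor genes Ncr1 (-0.39), Klrb1c (-0.24), Klre1 (-0.31) and Klrd1 (0.02) did not pass. The cytotoxic genes Gzma, Gzmb and Prf1 rose by 2.22, 3.27 and 2.64. Lat, an adaptor of T cell receptor signalling, went from 3.53, 4.86 and 4.88 CPM to 23.6, 24.6 and 30.7 CPM (2.57 ± 0.23, edgeR adjusted p = 0.00101), and Cd8a went from 2.51, 2.53 and 2.33 CPM to 7.02, 10.8 and 12.8 CPM (2.05 ± 0.30). The T cell genes Cd3e and Cd3g were at 12.5 CPM or less in every library. The risers numbered 7 without aged_KO replicate 3, 8 without aged_KO replicate 10 and 10 without MN1_KO replicate 7.

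Of 30 erythroid genes, 2 rose and 4 fell (median -0.57), shares of 6.67% and 13.3% against 18.9% and 13.5% of all genes tested. Gata1, the erythroid and megakaryocyte factor, rose from 15.8, 18 and 15.8 CPM to 50.7, 53.9 and 62.3 CPM (1.75 ± 0.17, edgeR adjusted p = 0.00113), and Tfrc, the transferrin receptor, fell by 1.5. The erythroid fallers numbered 22 without MN1_KO replicate 8, whose summed erythroid level of 4030 CPM was the highest of the 6 libraries. The fallers numbered 2 without aged_KO replicates 3 or 9 or MN1_KO replicate 7, 10 with DESeq2 and 7 with limma-trend. Among 21 genes of megakaryocytes and platelets, 10 were lower and 4 higher past the threshold (median -0.14). P2ry12, the platelet ADP receptor, went from 7.71, 8.43 and 5.16 CPM to 1.04, 1.12 and 1.58 CPM (-2.51 ± 0.34), and Itga2b rose by 1.97. None of 10 eosinophil genes passed.

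Cell division genes were lower. Of 30 mitotic genes, 21 fell and none rose (median -0.86). Mki67, the proliferation antigen, went from 1489, 1421 and 1395 CPM to 560, 555 and 492 CPM (-1.42 ± 0.20, edgeR adjusted p = 0.00336), and Kif23, a motor of cytokinesis, from 125, 116 and 121 CPM to 44.3, 46.5 and 56.6 CPM (-1.30 ± 0.16). The mitotic fallers numbered 9 without aged_KO replicate 3 and 10 without MN1_KO replicate 7, 13 without aged_KO replicates 9 or 10, and 28 without MN1_KO replicate 8. Of 31 DNA replication genes, 12 fell (median -0.49), with Rrm2, of ribonucleotide reductase, going from 308, 295 and 366 CPM to 110, 94.6 and 163 CPM (-1.40 ± 0.24). These fallers numbered 1 or 2 without any one aged_KO library, 4 and 1 without MN1_KO replicates 5 and 7, and 22 without MN1_KO replicate 8. Of 25 clustered histone genes, 15 could be tested, of which 8 fell (median -1.59); 13 of 15 fell with DESeq2, 4 of 9 with the stricter filter and 17 of 25 with all 12 libraries in the fit. Among single libraries left out, 2 of 17 fell without aged_KO replicate 3, 3 of 17 without aged_KO replicate 10, 4 of 20 and 4 of 21 without MN1_KO replicates 5 and 7, and 19 of 20 without MN1_KO replicate 8. The poly(A) selection of these transcripts was not assessed. Of 26 MYC and ribosome biogenesis genes, 5 rose (median 0.40, 19.2% against 18.9% over all genes); none passed without aged_KO replicates 3 or 9 or MN1_KO replicates 5 or 7, 3 passed without aged_KO replicate 10, 13 passed without MN1_KO replicate 8, and 9 passed with all 12 libraries in the fit. None of 51 cytosolic ribosomal protein genes passed (median 0.21).

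Of 29 glycolysis and hypoxia genes, 11 fell and 2 rose (median -0.71). Slc2a3, a glucose transporter, went from 648, 851 and 640 CPM to 53.6, 90.7 and 185 CPM (-2.70 ± 0.45), and Eno1, enolase, fell by 1.47 while Pfkm rose by 1.25. The glycolysis fallers numbered 4 without aged_KO replicate 9, 6 without aged_KO replicates 3 or 10, 7 without MN1_KO replicate 7, and 18 without MN1_KO replicate 8. Of 30 cholesterol and fatty acid genes, 8 fell and 4 rose (median -0.59), with 14 fallers without MN1_KO replicate 8 and 15 with DESeq2 or all 12 libraries in the fit. Srebf2, the regulator of the pathway, went from 147, 173 and 184 CPM to 51.4, 73.5 and 59.3 CPM (-1.45 ± 0.19, edgeR adjusted p = 0.00305). Elovl6, a fatty acid elongase, rose from 14.5, 14.5 and 12.7 CPM to 70, 95.1 and 52.7 CPM (2.39 ± 0.25). None of 36 nuclear-encoded respiratory chain genes passed (median -0.20), while 4 fell with DESeq2, 3 with all 12 libraries in the fit and 18 without MN1_KO replicate 8.

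Type I interferon response genes rose, 17 of 32 with none falling (median 1.02). Ifi44 went from 1.02, 0.789 and 0.778 CPM to 13.3, 15.2 and 5.47 CPM (3.71 ± 0.46, edgeR adjusted p = 0.00263), and the antiviral genes Mx2 and Oasl1 rose by 3.32 and 1.97. The risers numbered 7 or 8 without any one of the aged_KO libraries. Of 21 MHC class I and peptide loading genes, 9 rose and none fell (median 0.53), with H2-Q4 going from 84, 78.4 and 80.6 CPM to 170, 229 and 257 CPM (1.43 ± 0.20). That count was 3 to 5 without any one aged_KO library or MN1_KO replicate 7. Of 11 MHC class II genes, 3 rose and 3 fell. The chaperone-related genes H2-DMa, H2-Oa and H2-Ob rose by 1.06, 2.47 and 3.06, and the antigen-presenting chains H2-Aa and H2-Eb1 and the invariant chain Cd74 fell by 0.98, 0.95 and 1.09. The count of 3 depended on the setting: none fell without aged_KO replicate 9 or with all 12 libraries in the fit, 1 gene fell without aged_KO replicate 3 or MN1_KO replicate 5 or 7, and 5 fell with DESeq2, with limma-trend or without MN1_KO replicate 8.

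Marrow retention and niche genes were measured as follows. Cxcl12, the ligand that holds stem cells in the marrow, did not pass, with 22.9, 34.9 and 7.64 CPM against 24.4, 23 and 49.5 CPM (edgeR adjusted p = 0.454). Its receptor gene Cxcr4 went from 257, 343 and 264 CPM to 118, 135 and 212 CPM (-0.89 ± 0.26, edgeR adjusted p = 0.0379), and did not pass without any one library other than MN1_KO replicate 8, with adjusted p of 0.0823 to 0.139. Of 15 genes of this axis, 5 fell and 1 rose; 3 fell without aged_KO replicate 9 or MN1_KO replicate 7, and 8 without MN1_KO replicate 8. Of 23 stroma genes, 7 rose and 1 fell (median 0.91), and 0 or 1 rose without any one aged_KO library. The faller was the defining marker Lepr, from 10.6, 6.52 and 7.36 CPM to 5.11, 3.9 and 3.42 CPM (-0.97, edgeR adjusted p = 0.0432). No stroma gene fell without any one aged_KO library or without MN1_KO replicate 7. The other defining marker, Col1a1, did not pass (-0.1), at 3.46 to 11.1 CPM over the 6 libraries. Of 18 endothelial genes, 4 rose (22.2%) and 1 fell (5.56%), against 18.9% and 13.5% of all genes tested (median -0.04). Flt1 rose from 4.42, 4.2 and 6.65 CPM to 32.1, 36.5 and 17.4 CPM (2.50 ± 0.34), and Tie1 was the faller (-1.1). Whatever the call, 9 members were higher in MN1_KO and 9 lower. Without aged_KO replicate 3 or 9, 1 rose.

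Of 14 genes of reported Hopx partners and neighbouring pathways, 8 could be tested. Of these, 1 rose and 1 fell (12.5% each, against 18.9% and 13.5% of all genes tested). Smad1 rose from 18.5, 16.8 and 20.2 CPM to 199, 106 and 87.5 CPM (2.82 ± 0.33, edgeR adjusted p = 0.00221). Srf, serum response factor, fell by 0.59 (edgeR adjusted p = 0.0482), while Hdac1, Hdac2 and Hdac3 did not pass. Srf failed in 7 of the alternatives, with adjusted p up to 0.157. Of 28 genes of the MLL, DOT1L and BAF complexes with Ep300 and Crebbp, 2 rose (7.14%) and 3 fell (10.7%). Both shares are below the 18.9% and 13.5% of all genes tested. None fell without aged_KO replicate 3 or 9, 7 fell without MN1_KO replicate 8 and 6 with DESeq2. Mllt3 rose from 14.2, 13.1 and 8.77 CPM to 104, 69.8 and 32 CPM (2.51 ± 0.43). Of 21 Wnt, TGF-beta and BMP response genes tested, 7 fell and 2 rose (median -0.25): Tgfbi was at -3.11, and the risers were Lef1 at 1.78 and Ltbp1 at 2.87. Of 23 p53 targets and cell cycle inhibitors, 8 fell and 2 rose (median -0.01), with Plk2 at -3.65 and the risers Cdkn1a at 0.68 and Zmat3 at 1.35. The fallers of these lists numbered 4 and 5 without either of aged_KO replicates 3 and 9, and 6 of the p53 list rose with DESeq2 or all 12 libraries in the fit. No Wnt list gene rose without any one of the aged_KO libraries, and no p53 list gene did without aged_KO replicate 9.

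Among the large falls outside these lists were those of Lipg, endothelial lipase, and Dock1, a regulator of the cytoskeleton. Lipg went from 410, 134 and 316 CPM to 6.99, 11.6 and 2.52 CPM (-5.35 ± 0.68), and Dock1 from 35, 31.8 and 32.4 CPM to 0.68, 1.37 and 0.598 CPM (-5.23 ± 0.35, edgeR adjusted p = 0.000583). Ggt1 (chromosome 10, 75561076 to 75586193, plus strand), gamma-glutamyl transferase, went from 37.7, 34.4 and 53.9 CPM to 1.1, 1.37 and 1.54 CPM (-4.97 ± 0.28, edgeR adjusted p = 0.00034). Cd300e, a myeloid receptor gene, went from 82.2, 14 and 15.4 CPM to 0.453, 0.374 and 0.855 CPM. These 4 came from the rule for large falls, which took only genes whose groups did not overlap, so their separation is not a finding. The groups did not overlap for 50.6% of all genes tested. For Cd300e aged_KO replicate 3 stood above the other aged_KO libraries.

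Genes of the liver followed the deposited table rather than genotype. Alb, encoding albumin, chosen after its values were seen, was at 41.6, 24.1 and 32.5 CPM in aged_KO and had no count in MN1_KO, where 3 counts over the group would make it at least 825-fold lower. With all 12 libraries scaled together, Alb was at 25.6, 21.2 and 19.9 CPM in the aged wild-type libraries and at 0 in all 3 wild-type libraries of the MN1 table. Ttr and Serpina1c, 2 other liver genes, were also at 0 in all 6 libraries of the MN1 table and above 0.9 CPM in all 6 aged libraries. The source of these transcripts was not tested.

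MN1_KO replicate 8 lay closer to aged_KO than replicates 5 and 7 did. It was the nearest of the 3 to the aged_KO mean for 1602 of 2477 risers (64.7%) and 1025 of 1777 fallers (57.7%). The median log2 ratio to the aged_KO mean over the risers was 1.48, 1.45 and 1.02 in replicates 5, 7 and 8, and over the fallers -1.33, -1.14 and -0.99. Mn1 itself was also lowest in replicate 8, and its granule and erythroid sums were the highest of the 3. How far this library's position bears on each result was not tested beyond leaving it out.

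**Figure D5:**
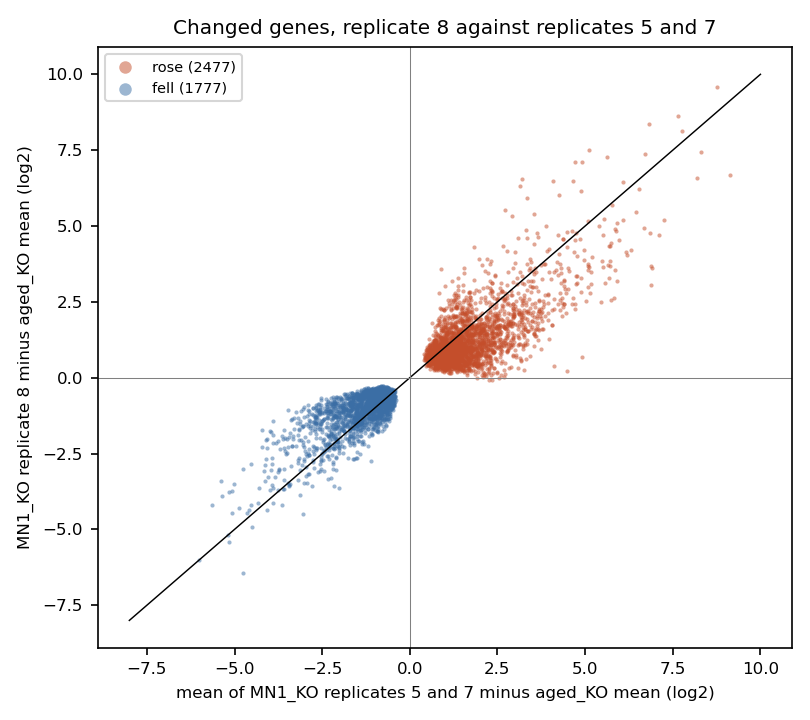
For each gene that rose (red) or fell (blue), the log2 difference from the aged_KO mean in MN1_KO replicate 8 (vertical) against the mean of replicates 5 and 7 (horizontal), with CPM plus 0.5. The black line is equality. Most points lie between the line and zero, where replicate 8 is nearer to aged_KO, and a set of risers lies above the line.

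Whether MN1 changed a gene differently in knockout and wild-type marrow was tested on all 12 libraries, as the MN1_KO minus aged_KO difference less the difference between the wild-type groups. The CPM given with this test were scaled over the same 12 libraries, so knockout values differ slightly from those above. Wild-type MN1 libraries differed in Mn1 itself, at 0.383, 30.5 and 0.158 CPM in replicates 2, 3 and 4, so this contrast averages libraries with and without the transcript. Of 13937 genes tested with edgeR, 463 differed (3.32%), 196 more positive in knockout (1.41%) and 267 more negative (1.92%). The count was 3337 without wild-type MN1 replicate 3 and 53 to 857 without one of the other libraries.

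Gpam (chromosome 19, 55067635 to 55127319, minus strand), an enzyme of triglyceride synthesis, was at 7.22, 5.75 and 7.27 CPM in aged_KO, 349, 460 and 375 CPM in MN1_KO, 14.6, 13.2 and 13 CPM in aged wild type and 23.1, 58.3 and 16.5 CPM in MN1 wild type replicates 2, 3 and 4. Its differing effect was 4.61 ± 0.54 on the log2 scale (edgeR adjusted p = 0.00506). Ggt1 differed by -6.43 ± 0.51 (edgeR adjusted p = 0.000906): it was at 3.35, 5.1 and 2.19 CPM in aged wild type and at 13.5, 6.44 and 9.85 CPM in MN1 wild type. In Ggt1 the aged groups differed as well, with 38, 35.6 and 53.8 CPM in aged_KO. Lrp1 stood at 1744, 1695 and 3191 CPM in MN1_KO and at 136, 228 and 154 CPM in MN1 wild type, while Stfa1 stood at 651, 1758 and 5586 CPM against 6.05, 18.7 and 4.75 CPM. Mn1-carrying wild-type replicate 3 held 617 CPM of Gria2 and 338 CPM of Ddx4, but 14 CPM of Krt9 and 1.64 CPM of Cdh3.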

How the data were processed

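The authors deposited expected counts per gene symbol, made with RSEM 1.2.28 and Bowtie2 2.3.4.3 on mm10, per the submitters' processing notes; the annotation is not given in the sources used here. They also deposited TPM values, which are written beside the counts but were not tested. Both tables were joined by symbol (24444 genes), and the counts were rounded. After filterByExpr and TMM scaling, edgeR's quasi-likelihood test was used (edgeR 4.0.16, limma 3.58.1, R 4.3.3), with Benjamini-Hochberg adjustment at 0.05. The main comparison was fitted on the 6 knockout libraries, and the test of differing effects on all 12. A group at 0 was given a floor of 3 counts. DESeq2 1.42.0, other scalings and filters and each library left out were alternatives.

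Genes were named by rule: Hopx, Mn1 and 9 others always, those with the largest change or CPM difference, those with the smallest p per list, and those with a differing effect. The members and lists were chosen with earlier results of these data known, and other list members named were chosen after their values were seen. Windows of 250 bases came from RefSeq (GRCm38.p6). The tests were checked on simulated counts with the same dispersion for every gene and library and few changed genes. That setting is simpler than these data and does not cover the uneven MN1_KO group. Some named genes are not reported here.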

Additional observations from a re-analysis of the deposited data

Results flagged for a closer look

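Genes named in the report whose response to MN1 differed between knockout and wild-type marrow are given here. Each passed the edgeR test of the difference itself on all 12 libraries (adjusted p from 0.000906 to 0.0482), and the value is the log2 response in knockout less that in wild type. The responses were more positive in knockout for Rag2 (6.46), Stfa1 (6.43), Hopx (6.12), BC100530 (5.85), Stfa2 (5.16), Gpam (4.61), Stfa2l1 (4.39), H2-Oa (3.15), Lrp1 (2.82), H2afz (2.2), Mrc1 (2.04), H2-DMa (1.49) and H2-Q4 (1.18). They were more negative in knockout for Lipg (-7.31), Nos2 (-6.56), Ggt1 (-6.43), Dock1 (-4.93), Ly6g (-3.82), Fcnb (-3.19), Vcan (-3.18), Ifitm6 (-2.97), Mmp25 (-2.87), Slc2a3 (-2.63), Slc40a1 (-2.51), Clec4e (-1.74), Mki67 (-1.41) and Srebf2 (-1.3). The wild-type MN1 group held 2 libraries with Mn1 near the level of the aged libraries, so each difference averages over libraries that did and did not carry the transcript. Hopx itself is the deleted gene and held 2 counts over aged_KO.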

How the results depend on the processing

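No paired analysis was possible because the groups compared share fewer than 2 replicate numbers (5, 7 and 8 against 3, 9 and 10). The number of changed genes, 4254, ran from 1782 to 7739 over the fits that left out one library, and lay within 1.5 times under the other settings, with 0 of the changed genes turning sign in any of them. The number of genes with a differing response, 463, was 1671 with DESeq2 and ran from 53 to 3337 over the fits that left out one library; the cause was not tested. Of 204 named genes tested, 194 changed and 151 of these passed in every setting, and 43 lost the call in at least 1, 40 of them only where a library was left out. Of 533 list medians under the alternatives, 13 turned sign, and 138 list counts moved by over 1.5 times. With 3 libraries a group, an exact permutation test of a single gene cannot go below p = 0.1, so single-gene calls rest on the spread that edgeR shares over genes. MN1 label, age and deposited table coincide, so no setting separates them.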
